A study of Sus scrofa with 12 samples.

Results

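Voltage-gated calcium channels open when the muscle membrane is depolarized, and each channel is built around a pore-forming alpha1 subunit to which a cytoplasmic beta subunit, an alpha2delta subunit and, in skeletal muscle, a transmembrane gamma subunit attach. The genes of these subunits were followed here in Semimembranosus muscle, a muscle of the ham, of Italian Large White pigs with high or low intramuscular fat (IMF). The list held 10 genes, and their pig Ensembl names were looked up among the 25880 genes of the count matrix. A counted identifier was found for 9 of them. CACNA1C, the alpha1 subunit of the cardiac and smooth muscle channel, was not analysed here, and CACNB4 had too few counts to be tested, so that 8 of the 14262 genes tested were channel subunits of the list. CACNB3 was chosen by its difference between the same high and low IMF pigs, and its relatives were listed around it as members of one gene family. The difference of CACNB3 is for that reason given as a description, with no test.

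The high IMF group held 6 pigs (pigs 1 to 6) and the low IMF group 6 other pigs (pigs 7 to 12). The pigs shared breed, housing and diet, were labelled as 3 females and 3 males in each group, weighed 150 to 160 kg and were 234 to 244 days old in the high IMF group and 229 to 249 days old in the low IMF group. Per the paper the females were gilts, the males were barrows (castrated), and the pigs were slaughtered on different days. Polyadenylated RNA of each muscle was sequenced once, in stranded libraries with summed counts of 131048805 to 178013997 per pig. In every pig this sum exceeded the number of input reads that the paper reports, so that counts may not be independent. Before any result, the labelled sex was compared with the summed counts of 2 Y chromosome genes, EIF1AY and KDM5D, which were either at most 6 or at least 3734 in a pig. These counts went against the labelled sex in 6 of the 12 pigs, namely pigs 3 and 5 of the high IMF group and pigs 7, 8, 9 and 10 of the low IMF group. The cause of the mismatch was not tested, and the IMF group of every library was taken from the labels. The differences between the groups were repeated in the other 6 pigs, 4 of high and 2 of low IMF. A match of sex does not show that these 6 pigs are labelled correctly. The relations over pigs and the shares within classes were not repeated there. The tissue label held, as 4 of 6 markers of skeletal muscle fibres had a counted identifier and their summed level lay between 31578 and 61149 CPM in every pig (CPM, read counts divided by the TMM-normalized library size).

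In skeletal muscle the channel of the transverse tubule, whose pore is CACNA1S, acts mainly as the voltage sensor that opens the ryanodine receptor of the sarcoplasmic reticulum. Beta subunits bind the pore subunit at a short cytoplasmic stretch called the alpha interaction domain and bring it to the membrane. The alpha2delta subunit is a largely extracellular protein that helps the channel to reach its place, and gamma subunits modulate its gating. CACNA1H forms a T-type channel, which opens at lower voltage and does not depend on a beta subunit.

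The 4 beta genes encode closely related proteins, and the sequences below show where the bases differ in a closely matching stretch. The 60-base window was picked as the one with the fewest bases different between CACNB3 and CACNB1. It is therefore no measure of the typical match between the genes. In the translated RefSeq models of the Sscrofa11.1 genome, CACNB3 (484 residues) shared 62.5% of aligned residues with CACNB1 (643 residues) and 64.9% with CACNB2 (656 residues). A window of 60 coding bases inside 1 exon of each gene is printed 5′ to 3′, on the plus strand, with bases that differ from CACNB3 in capitals, for CACNB3 at chr5:14885717-14885776, CACNB1 at chr12:23050966-23051025, CACNB2 at chr10:44880317-44880376 and CACNB4 at chr15:436466-436525.
CACNB3: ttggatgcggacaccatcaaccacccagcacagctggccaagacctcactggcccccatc
CACNB1: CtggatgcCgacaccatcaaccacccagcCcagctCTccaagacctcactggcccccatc
CACNB2: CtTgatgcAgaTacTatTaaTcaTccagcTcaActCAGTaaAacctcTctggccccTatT
CACNB4: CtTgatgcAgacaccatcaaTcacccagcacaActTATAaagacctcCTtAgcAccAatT
The 3 relatives differed from CACNB3 at 5, 18 and 15 of the 60 bases, and each at 1 of the 20 encoded residues. The longest run of bases shared by any pair of the 4 beta transcripts was 29, between CACNB3 and CACNB4, which is shorter than the 100-base reads.

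The partner of these proteins on the pore subunit is shown next, because it separates the alpha1 genes of the list. A match to the alpha interaction domain was found once in each of the translated models of CACNA1S, CACNA1C, CACNA1A, CACNA1B, CACNA1D, CACNA1E and CACNA1F, and no match was found in those of CACNA1H, CACNA1G and CACNA1I. The 54 coding bases of the domain are printed 5′ to 3′ on the coding strand, for CACNA1S at chr10:23543776-23543829 (minus strand) and for CACNA1C at chr5:69322010-69322063 (plus strand), with bases that differ from CACNA1S in capitals.
CACNA1S: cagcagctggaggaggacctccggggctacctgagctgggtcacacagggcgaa
CACNA1C: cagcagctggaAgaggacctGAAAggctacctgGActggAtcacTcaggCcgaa
The pair differed at 10 of 54 bases and 4 of 18 residues. The bases of CACNA1S, and their translation, are those of the genome at the coordinates of its RefSeq model. That model carries edits against the genome sequence, which were not applied here.

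Semimembranosus muscle expressed 1 predominant gene of each subunit class among the genes counted, which left out CACNA1C. Compared per length, as TMM-normalized CPM per kb of exon over the 12 pigs, CACNA2D1 stood highest with a mean level of 97.6, followed by CACNA1S with 57.6, CACNB1 with 32.1, CACNG1 with 31.3 and CACNG6 with 4.69. CACNB3 stood at 0.529, CACNA1H at 0.149, CACNB4 at 0.0464 and CACNB2 at 0.0177. The levels of CACNB1 and CACNG1 did not differ beyond their spread, with CACNB1 higher in 8 of 12 pigs, and neither did those of CACNB4 and CACNB2, with CACNB4 higher in 6 of 12. CACNA1H was above CACNB4 in 10 of 12 pigs, and in the other 5 steps of the order the gene with the higher mean was higher in 12 of 12 pigs. The order depended on the length used. Per kb of coding sequence, an alternative added after seeing the data, CACNA2D1 stood highest with 278, followed by CACNG1 with 125, CACNB1 with 65.2, CACNA1S with 58.9 and CACNG6 with 23.5, so that CACNA1S moved from the second to the fourth place. CACNB3 then stood at 1.24, CACNA1H at 0.170, CACNB2 at 0.108 and CACNB4 at 0.0507, with CACNB2 above CACNB4 in 10 of 12 pigs. CACNA2D1 was the highest and CACNB3 the highest of the 4 scarce genes on both scales. RefSeq has only a partial model of CACNB4 and marks its CACNA1S model as edited against the genome sequence, so that both lengths are approximate.

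**Figure D1:**
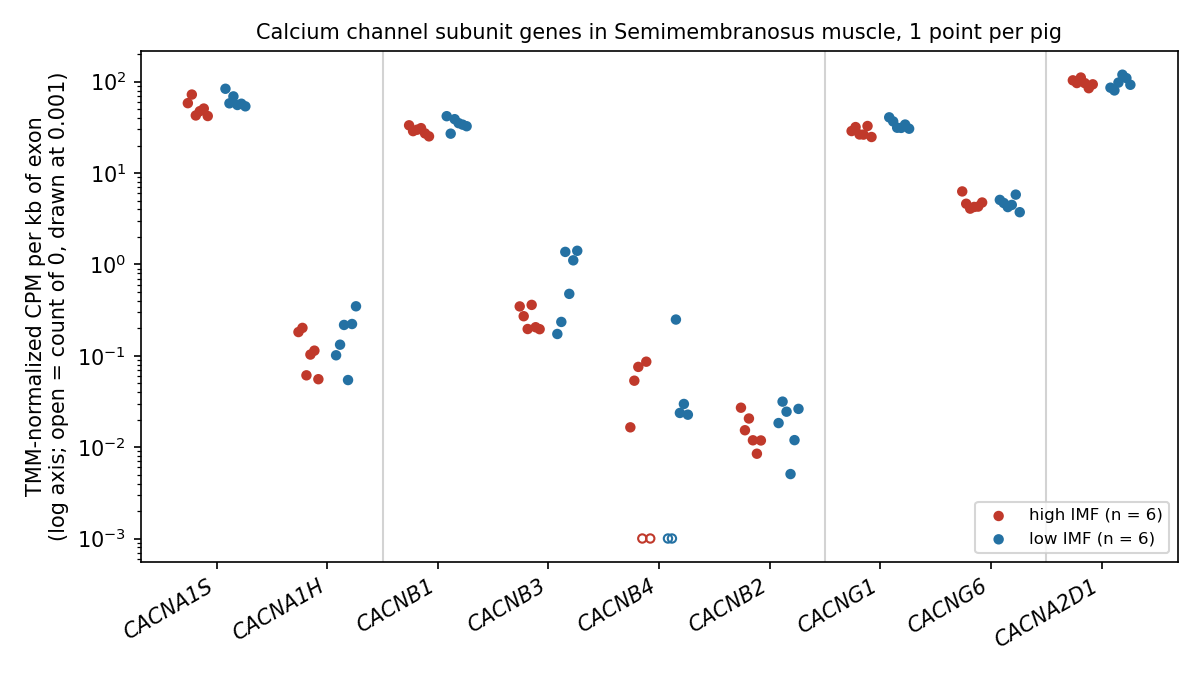
Level of each counted subunit gene in each pig, as TMM-normalized CPM per kb of exon on a log axis, with high IMF pigs in red and low IMF pigs in blue, 1 point per pig, and vertical lines between the alpha1, beta, gamma and alpha2delta classes. Among the alpha1 and the beta genes drawn, 1 gene stands far above the others of its class. The 2 gamma genes lie closer together, with CACNG1 above CACNG6, and CACNA2D1 is the only alpha2delta gene drawn. The scarce genes CACNB3, CACNA1H, CACNB4 and CACNB2 spread more between pigs than the abundant genes.

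Among the alpha1 genes counted, a set without CACNA1C, CACNA1S took between 99.3% and 99.9% of the summed level per length in every pig, and CACNA1H at most 0.643%. CACNA1S (ENSSSCG00000024784, chr10:23503701-23567797, minus strand) ranged from 242 CPM over a median of 283 to 416 CPM in the high IMF group and from 309 over 332 to 481 CPM in the low IMF group. The groups overlapped, and pig 7 alone stood above every high IMF pig. High IMF pigs averaged 300.5 ± 65.9 CPM and low IMF pigs 362 ± 66.1 CPM (SD, n = 6 each), a log2FC (low over high IMF) of 0.27 with an SE of 0.15 and an edgeR quasi-likelihood adjusted p of 0.564. In the 6 pigs whose Y chromosome counts went with the label the log2FC was 0.021 with an SE of 0.23.

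CACNA1H (ENSSSCG00000034266, chr3:40637420-40694616, minus strand) was a low-level gene with 56 to 476 counts per pig. It ranged from 0.444 over a median of 0.869 to 1.62 CPM in the high IMF group and from 0.435 over 1.40 to 2.79 CPM in the low IMF group. Pigs 9, 11 and 12 stood above every high IMF pig, and pig 10 below every one of them. Its log2FC of 0.58 with an SE of 0.43 did not pass the test (edgeR quasi-likelihood adjusted p = 0.659), with a 95% interval from -0.35 to 1.52, and rested in part on pig 12, without which it was 0.29. It was 1.08 with an SE of 0.50 in the 6 pigs whose Y chromosome counts went with the label.

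Among the beta genes, CACNB1, the beta subunit of the skeletal muscle channel, took 98.9 ± 0.145% of the summed level per length in high IMF pigs and 97.6 ± 1.67% in low IMF pigs (SD, n = 6 each). CACNB3 took 0.880 ± 0.189% in the high and 2.22 ± 1.54% in the low IMF group (SD, n = 6 each), with 0.652 to 1.15% in single high IMF pigs and 0.411 to 4.15% in single low IMF pigs. CACNB1 was the main beta gene in every pig, with a share of at least 95.7%. CACNB1 (ENSSSCG00000017510, chr12:23038185-23060504, plus strand) ranged from 99.0 over a median of 115 to 131 CPM in the high IMF group and from 106 over 136 to 165 CPM in the low IMF group, and 4 low IMF pigs stood above every high IMF pig. Its log2FC was 0.26 with an SE of 0.11, which did not pass over all genes (edgeR quasi-likelihood adjusted p = 0.453), and 0.18 with an SE of 0.16 in the 6 pigs whose Y chromosome counts went with the label.

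CACNB3 (ENSSSCG00000032967, chr5:14875524-14888224, plus strand), a beta subunit best known from the nervous system and smooth muscle, had 64 to 820 counts per pig. In the high IMF group its level was 1.18 CPM in pig 1, 0.923 in pig 2, 0.669 in pig 3, 1.23 in pig 4, 0.700 in pig 5 and 0.666 in pig 6. In the low IMF group it was 0.590 CPM in pig 7, 0.800 in pig 8, 4.67 in pig 9, 1.62 in pig 10, 3.78 in pig 11 and 4.80 in pig 12. The groups overlapped: pigs 9, 10, 11 and 12 stood above every high IMF pig, pig 8 stood within the high IMF range and pig 7 below it. High IMF pigs averaged 0.895 ± 0.259 CPM and low IMF pigs 2.71 ± 1.93 CPM (SD, n = 6 each), a log2FC of 1.60 with an SE of 0.48 or a fitted 3.03-fold difference. The coefficient of variation was 29.0% in the high and 71.3% in the low IMF group. The SD of its log2 CPM within groups, 0.98, was larger than that of 92.0% of all genes tested, whose median was 0.32. The log2FC was 1.26 with the labelled age as a term, ranged from 1.36 without pig 12 to 1.81 without pig 7, and was 2.11 with an SE of 0.29 in the 6 pigs whose Y chromosome counts went with the label, where pigs 11 and 12 were the low IMF pigs left. No chance value is given for any of these, since CACNB3 was chosen by this difference.

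The other beta genes were close to the limit of counting. CACNB2 (ENSSSCG00000011040, chr10:44321954-44887410, plus strand), the main beta subunit of the heart, had 10 to 57 counts per pig and ranged from 0.102 over a median of 0.164 to 0.326 CPM in the high IMF group and from 0.061 over 0.258 to 0.380 CPM in the low IMF group. The groups overlapped nearly throughout, and the log2FC of 0.30 had a 95% interval from -0.63 to 1.23 (edgeR quasi-likelihood adjusted p = 0.844) and was 0.21 in the 6 pigs whose Y chromosome counts went with the label. CACNB4 (ENSSSCG00000029073, chr15:402801-455691, plus strand), known from the cerebellum, had 0 counts in 2 pigs of each group and at most 59, in pig 9. A count of 0 would allow a level of up to 0.0173 to 0.0277 CPM in a single pig at 3 counts. That range is over all 12 libraries and not only those with a count of 0. It holds counting error only, with each count taken as independent.

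**Figure D2:**
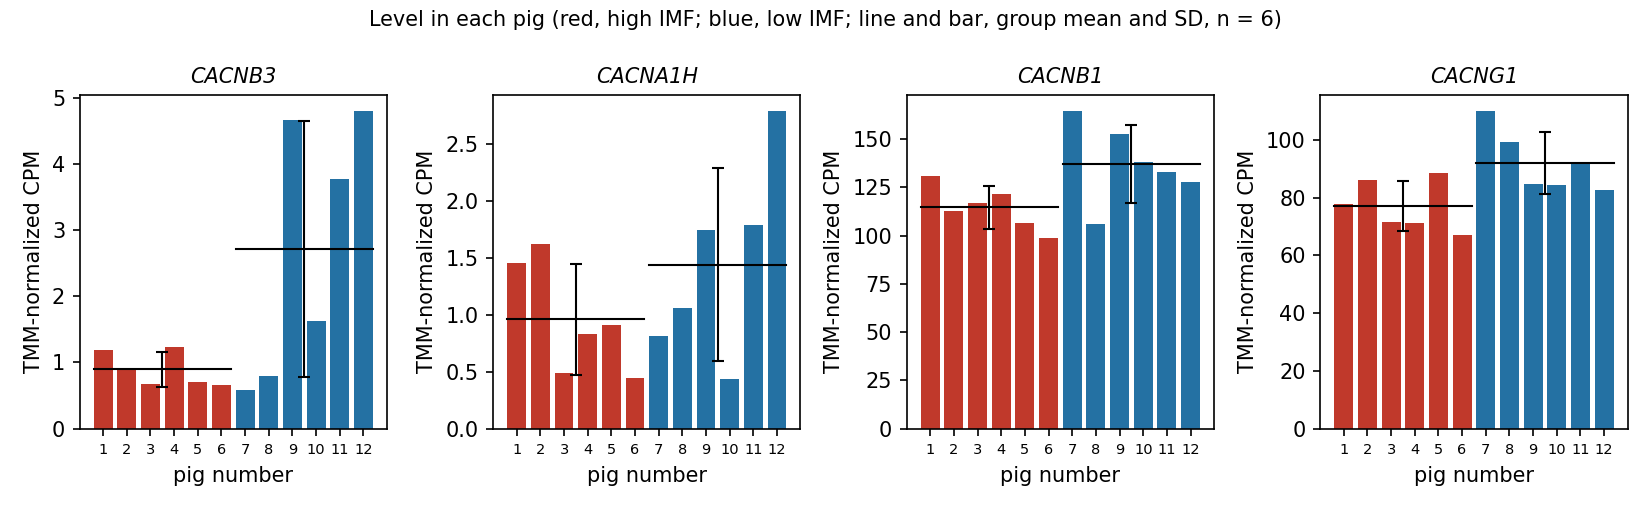
TMM-normalized CPM of CACNB3, CACNA1H, CACNB1 and CACNG1 in each pig on linear axes from 0, with high IMF pigs in red, low IMF pigs in blue, and the line and error bar giving the group mean and SD (n = 6). CACNB3 is high in pigs 9, 11 and 12 and stays low in pigs 7 and 8, at 0.590 and 0.800 CPM, while CACNB1 and CACNG1 vary little between pigs.

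Among the gamma genes, CACNG1, the gamma subunit of the skeletal muscle channel, took 85.7 ± 2.35% of the summed level per length in the high and 87.9 ± 1.38% in the low IMF group (SD, n = 6 each), and CACNG6 took 14.2 ± 2.33% and 12.1 ± 1.39%. CACNG8 had no length and was left out of this sum. CACNG1 (ENSSSCG00000017271, chr12:13462589-13481651, plus strand) ranged from 67.0 over a median of 74.7 to 88.4 CPM in the high IMF group and from 82.6 over 88.2 to 110.0 CPM in the low IMF group. Pigs 7, 8 and 11 stood above every high IMF pig, and the ranges overlapped. Its log2FC of 0.26 with an SE of 0.10 did not pass over all genes (edgeR quasi-likelihood adjusted p = 0.441) and was 0.21 with an SE of 0.16 in the 6 pigs whose Y chromosome counts went with the label. CACNG6 (ENSSSCG00000003257, chr6:56123598-56151145, minus strand) ranged from 15.9 over 17.4 to 24.6 CPM in the high and from 14.6 over 17.9 to 22.7 CPM in the low IMF group, with a log2FC of -0.013 and a 95% interval from -0.29 to 0.27 (edgeR quasi-likelihood adjusted p = 0.982), and of -0.056 in the 6 pigs whose Y chromosome counts went with the label.

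CACNA2D1 (ENSSSCG00000015402, chr9:97781057-98265925, plus strand), the alpha2delta subunit that gabapentin binds, took at least 99.6% of its class in every pig. It ranged from 810 over a median of 921 to 1059 CPM in the high IMF group and from 765 over 908 to 1138 CPM in the low IMF group. The group means were 932 ± 84.8 and 930.5 ± 140 CPM (SD, n = 6 each), the log2FC was -0.0022 with a 95% interval from -0.24 to 0.24 (edgeR quasi-likelihood adjusted p = 0.997), and the sign turned with the normalization and in the 6 pigs whose Y chromosome counts went with the label (0.057). CACNA2D1 was the subunit gene with the most counts, 88978 to 185978 per pig, so that its interval reflects the spread between pigs and not counting.

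Over all genes, the edgeR quasi-likelihood test at an adjusted p of 0.05 with a log2FC of 0.58 or more in either direction called 0 of 14262 genes, or 0% of them, and 0 of the 7 tested subunit genes other than CACNB3. DESeq2's Wald test called 58 genes at the same thresholds, none of them among these 7 subunit genes. No verdict is given for CACNB3, which was chosen by this contrast. An unadjusted p at or under 0.05 was reached by 1486 genes, 10.4% of those tested, and by 2 of the 7 other subunit genes, CACNB1 and CACNG1. The groups did not overlap for 94 genes, 0.659% of those tested, and for none of the subunit genes. Without CACNB3, 5 of the 7 genes were higher in the low IMF group, beside 48.4% of all genes tested, and their median log2FC was 0.26, beside -0.0083 over all genes tested. The 7 genes were listed with results of these pigs known, so that nothing is read from these counts.

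**Figure D3:**
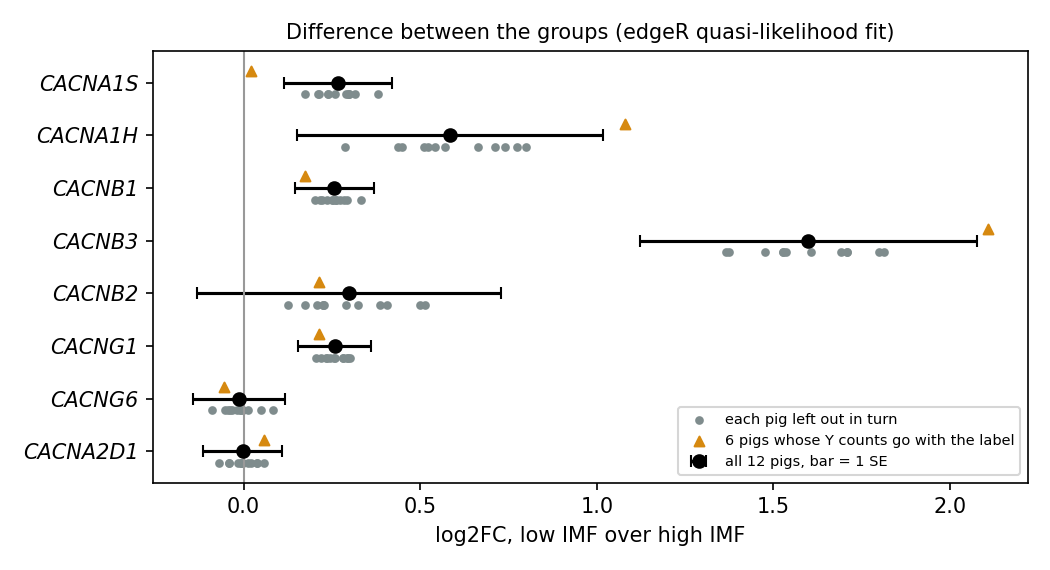
Log2FC of the 8 tested subunit genes, low over high IMF, from the edgeR quasi-likelihood fit, with black points and bars of 1 SE for all 12 pigs, grey points for each pig left out in turn and orange triangles for the 6 pigs whose Y chromosome counts went with the labelled sex. CACNB3 stands at 1.60, CACNA1H at 0.58 with a wide bar, and CACNG6 and CACNA2D1 near 0.

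Most of the remaining genes of the family were near or under the limit of counting in this muscle. Of 16 other alpha1, gamma and alpha2delta genes, 15 had at least 1 count in the 12 pigs, CACNA1B had none, and 11 had under 15 counts in every pig. The 4 that could be tested were CACNA1E, CACNA1G, CACNA2D2 and CACNA2D3. None of the 4 reached an unadjusted p of 0.05 in either direction, and their median log2FC was 0.18. CACNA2D3, an alpha2delta subunit, was the most counted of them, with 15 to 418 counts per pig, close to those of CACNA1H. It ranged from 0.293 over a median of 0.861 to 3.29 CPM in the high and from 0.0879 over 1.20 to 1.52 CPM in the low IMF group. Pigs 5 and 6 stood above every low IMF pig, pig 12 was the lowest, and the highest and lowest pigs were 37.4-fold apart. Its log2FC was -0.67 with an SE of 0.64 (edgeR quasi-likelihood adjusted p = 0.746), and -0.68 with an SE of 1.18 in the 6 pigs whose Y chromosome counts went with the label.

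How the subunit genes varied together was compared over the 12 pigs after subtracting each group's mean log2 CPM, which leaves out the contrast that chose CACNB3. Of 28 pairs, 0 passed after Benjamini-Hochberg adjustment of the permutation p-values. The closest pair was CACNA1S and CACNG1, 2 subunits of the skeletal muscle channel, with a Pearson r of 0.71 (permutation p = 0.0150, adjusted p = 0.419) and a Spearman rho of 0.76 (permutation p = 0.0073, adjusted p = 0.174), and r fell to 0.46 without pigs 7 and 6. The second was CACNA1H and CACNB3, with r = 0.63 (permutation p = 0.0489, adjusted p = 0.556) and rho = 0.73 (permutation p = 0.0124, adjusted p = 0.174), and r was 0.64 without pigs 12 and 10. Over all genes tested, 1.75% had a higher r with CACNB3 than CACNA1H had, and 33.3% had a higher r than CACNB1 had. The r of CACNB1 with CACNB3 was unstable, 0.15 over the 12 pigs, -0.24 to 0.70 with each pig left out and 0.72 without pigs 7 and 6. The 5 named genes most like CACNB3 by this r were NECAB3 with 0.89, FLVCR2 with 0.88, KIF9 with 0.86, FAM200A with 0.85 and MGST2 with 0.85, over the same 12 libraries, and were picked for this value. In 4 of these 5 genes the log2FC was below 0, from -0.78 for FLVCR2 to -0.21 for MGST2, and in FAM200A it was 0.17.

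**Figure D4:**
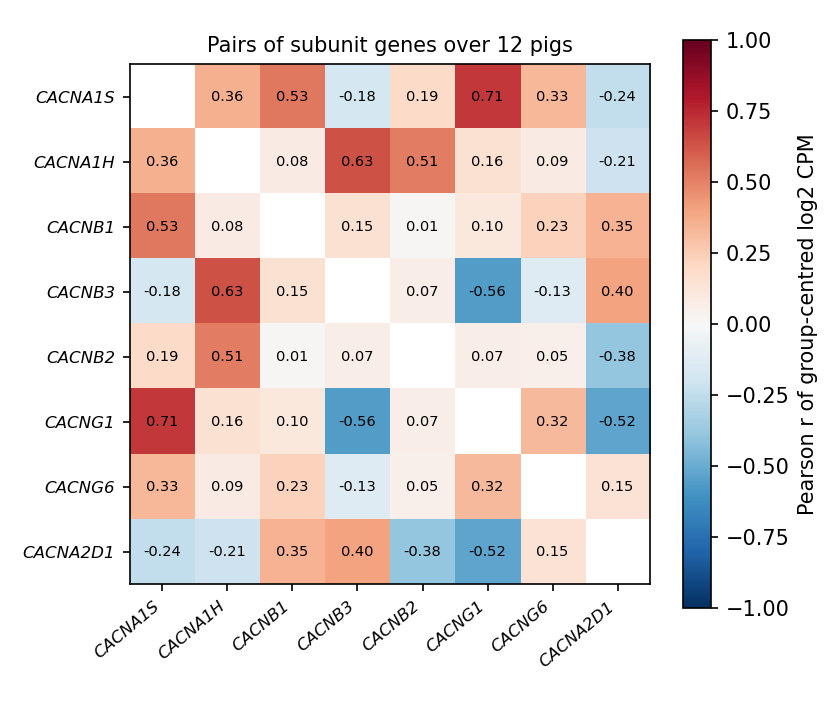
Pearson r of log2 CPM after subtracting the group means, for each pair of the 8 tested subunit genes over 12 pigs, from -1 in blue to 1 in red. CACNA1S with CACNG1 (0.71) and CACNA1H with CACNB3 (0.63) are the highest, and 0 of the 28 pairs passed the adjusted test.

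The genes that work with the channel were described from 3 lists. Of 19 genes of the triad and excitation-contraction coupling, RYR1 (the ryanodine receptor), STAC3, JPH2, CASQ2 and FKBP1A had no counted identifier and were not measured. The other 14 could be tested. None was called, 4 reached an unadjusted p of 0.05 with the higher level in the low IMF group and 0 with the lower, beside 10.4% of all genes in either direction, and the median log2FC was 0.076. The 4 were ATP2A1, the calcium pump of fast fibres, with a log2FC of 0.46 (SE 0.13, edgeR quasi-likelihood adjusted p = 0.367), SRL with 0.35, HRC with 0.24 and SYPL2 with 0.23. SRL and HRC are calcium-binding proteins of the sarcoplasmic reticulum, and SYPL2 is a membrane protein of the triad. Of the most abundant genes of this list besides ATP2A1, SLN, a small inhibitor of the calcium pump, had a log2FC of -0.20 and CASQ1, the main calcium store of the reticulum, one of 0.058. In the 6 pigs whose Y chromosome counts went with the label, 0 of the 14 genes reached an unadjusted p of 0.05, beside 4.05% of all genes there, with a log2FC of 0.31 for ATP2A1.

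RGK proteins are small GTP-binding proteins that bind beta subunits and hold the channel back. All 4 were tested and the edgeR test called none. The paper lists GEM as differentially expressed between these groups with DESeq2, so that the call depends on the test. GEM was thus a known result of these pigs when the list was made. GEM ranged from 6.55 to 10.2 CPM in the high and from 3.52 to 5.30 CPM in the low IMF group, without overlap (log2FC -0.79, SE 0.15, edgeR quasi-likelihood adjusted p = 0.190). RRAD, the most abundant of them, ranged from 72.1 to 233 CPM in the high and from 128 to 636 CPM in the low IMF group (log2FC 0.94, SE 0.43, edgeR quasi-likelihood adjusted p = 0.473). REM1 had a log2FC of -0.025. An unadjusted p of 0.05 was thus reached by 1 of the 4 genes in each direction, beside 10.4% of all genes in either, groups without overlap were found for 0.659% of all genes, and the median log2FC of the 4 was -0.25. In the 6 pigs whose Y chromosome counts went with the label, the log2FC was -0.69 for GEM and 0.71 for RRAD. Of the 6 genes of store-operated calcium entry, which refills the reticulum, none reached an unadjusted p of 0.05, the median log2FC was 0.049, and the most abundant, ORAI1, STIM1 and STIM2, had log2FC values of 0.047, 0.22 and -0.0036.

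Whole muscle holds other cell types that can express CACNB3 or CACNA1H, and fewer cells of a type and less RNA per cell cannot be told apart in such samples. The summed CPM of the marker lists overlapped between the groups throughout. All 7 markers of smooth muscle and pericytes were counted and summed to 169 to 325 CPM in the high and 212 to 446 CPM in the low IMF group, and 6 of 8 markers of Schwann cells and nerve to 34.8 to 61.1 and 36.0 to 60.9 CPM. All 6 adipocyte markers summed to 261 to 375 and 138 to 541 CPM, 4 of 6 endothelial markers to 84.8 to 111 and 87.4 to 140.0 CPM, all 6 macrophage markers to 63.8 to 147 and 73.1 to 131 CPM, all 7 markers of T and B lymphocytes to 1.51 to 4.43 and 1.63 to 2.83 CPM, and all 6 markers of fibro-adipogenic cells to 1076 to 2196 and 1660 to 2642 CPM. Within the fibres, 5 of 6 slow fibre markers summed to 1523 to 4137 and 1064 to 5073 CPM, 3 of 7 fast fibre markers to 13581 to 19022 and 15071 to 19942 CPM, and 8 of 10 markers of denervated and immature fibres to 1440 to 1938 and 1383 to 1829 CPM. None of the counted markers was at 0 in all pigs. Single markers could differ where the sum, which a few abundant genes dominate, did not. The adipocyte markers did not follow the IMF label: their log2FC ran from -0.15 to 0.33 with a median of 0.15. None of the 6 reached an unadjusted p of 0.05. In the 6 pigs whose Y chromosome counts went with the label their median log2FC was 0.69, towards low IMF. There 1 of them reached an unadjusted p of 0.05, beside 4.05% of all genes. The cause was not tested. At an unadjusted p of 0.05, which 10.4% of all genes reached, CDH5 of endothelium (log2FC 0.55), LMOD1 of smooth muscle (0.74) and NCAM1 of denervated fibres (0.51) were higher in low IMF pigs and PDGFRA of fibro-adipogenic cells was lower (-0.42), with edgeR quasi-likelihood adjusted p-values of 0.383 for CDH5 and 0.441 for the other 3. Of 22 relations of these sums and that of the skeletal muscle fibre markers with CACNB3 and CACNA1H over the 12 pigs, group means subtracted, none passed after adjustment. The nearest was CACNB3 with the markers of denervated and immature fibres (r = -0.67, permutation p = 0.0174, adjusted p = 0.382). The part of other cell types in the level of CACNB3 was not tested.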

How the data were processed

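Per the paper's methods and the labels, the authors used Trimmomatic for trimming and HISAT2 and StringTie for alignment and assembly on Sscrofa11.1, and deposited raw read counts per Ensembl gene from HTSeq, without normalization. Whether counting used strand, and how reads with several alignments were treated, is not given in the sources used here. Members and lists were chosen with earlier results of these data known. Symbols came from pig Ensembl names, which covered 14857 of the 25880 genes, and 5539 genes had no count. Lengths and positions came from RefSeq by symbol. Genes kept by filterByExpr were normalized by TMM and tested with edgeR 4.0.16 (R 4.3.3, quasi-likelihood, a group term alone with 10 residual degrees of freedom, Benjamini-Hochberg over 14262 genes). The common biological coefficient of variation was 0.332. The Poisson counting error was at most 13.4% for every tested member except CACNB2, where it reached 31.6%. It takes each count as independent and is too small where counts are not. A prior count of 2 was added for log2 CPM. Two-sided permutation tests within groups used 100000 resamples (scipy 1.17.1). Alternatives were DESeq2 1.42.0, limma 3.58.1 (voom), other normalizations and filters, sex or age terms, the pigs whose Y chromosome counts went with the label, and each pig left out. Levels per coding length and the lists in the pigs whose Y chromosome counts went with the label were added after seeing the data. The alpha interaction domain pattern was widened after the first form missed CACNA1S. The named genes were every member, the 3 most abundant genes of each pathway list and those at an unadjusted p of 0.05, and the 5 named genes most like CACNB3. Scripts were tested on simulated data. The paper describes the pigs of each group as unrelated, with full and half-sibs avoided, and each pig gave 1 library.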

Additional observations from a re-analysis of the deposited data

Results flagged for a closer look

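Of the 16 sets of 6 pigs compared, the 8 tested genes in each group, 1 held a pig that stood far from the rest. CACNG6 was at 24.6 CPM in pig 1 of the high IMF group, with the next pig at 18.6 CPM. The gap was 0.69 of the range of that group, above Dixon's limit, which chance passes in about 1 of 20 groups. Without pig 1 the log2FC of CACNG6 was 0.083 in place of -0.013.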

How the results depend on the processing

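No tested subunit gene other than CACNB3, for which no verdict is given, was called in any of the 23 alternatives. The log2FC of CACNA1S, CACNA1H, CACNB1, CACNB2 and CACNG1 kept its sign in all 23. That of CACNB3 lay between 1.26 and 2.11, which lends it no support, since CACNB3 was chosen by this contrast. Over all genes the edgeR count of 0 was 58 with DESeq2's Wald test on these genes and 65 with that test on every gene that had a count, and 0 to 1 with each pig left out, 1 without pig 5 or pig 10. The cause was not tested. The sign turned for CACNG6 and CACNA2D1, whose log2FC lay near 0. CACNG6 was at 0.042 with the labelled age as a term and between -0.088 and 0.083 with each pig left out. CACNA2D1 was at 0.0027 with DESeq2 size factors, 0.0012 with every gene that had a count, 0.0027 and 0.0035 with the Wald test, 0.020 with age as a term, 0.057 in the 6 pigs whose Y chromosome counts went with the label, and between -0.069 and 0.059 with each pig left out. The mean share of CACNB2 among the beta genes was 0.0551% per exon length, 0.165% per coding length and 0.169% without length, and that of CACNB4 0.136%, 0.0729% and 0.0538%, so that their order turned. That of CACNG1 among the gamma genes was 86.8%, 84.0% and 82.0%, and that of CACNG6 13.2%, 15.9% and 17.9%. Of the 28 pairs of genes, 0 passed with DESeq2 size factors or upper-quartile factors. No paired analysis was possible because the groups share no animals and the replicate numbers only order the pigs.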

Other observations

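The genes most like CACNA1H were looked up after its values were seen and are given as a description, over the same 12 libraries with group means subtracted. CNN3, a calponin of the actin cytoskeleton, had a Pearson r of 0.95, NPR2, a natriuretic peptide receptor, 0.91, MYOCD, a transcriptional coactivator of smooth muscle genes, 0.89, TSHZ2 0.87 and CHRD 0.87. The summed smooth muscle and pericyte markers had an r of 0.43 with CACNA1H (permutation p = 0.189, adjusted p = 0.447). The r of CACNB3 with CACNA1H was 0.63, and 3.53% of all genes tested had a higher r with CACNA1H.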
